A study of Mus musculus with 4 samples.

Results

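The genes described here act between the T cell receptor (TCR) and the first branches of its signal: the CD3 chains, the kinases and phosphatases that act on them, the adaptors around LAT, and the brakes on each step. They are a list of 48 gene symbols. Each symbol was matched through GENCODE to the gene identifiers of the files, which hold 50600 genes, and 48 of 48 were found. The rule uses no measured value. The data are RNA sequencing counts of 4 libraries of mouse T helper 17 (Th17) cells, CD4 T cells that secrete IL-17. All 4 come from primary cells of strain C57BL/6NJ, with a linked protocol for the differentiation of CD4 T cells. Their labels number them as biological replicates 1 to 4 and give the same donor to all of them. The labels name no genetic change, drug or stimulus, sex and age are not given, and the output name in the file headers carries 48 hr. The libraries form 1 group with no contrast, so the comparisons are between genes within each library and between the libraries.

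TCR signalling is a relay of phosphorylation. The receptor itself has no enzyme activity, and its signal passes through short tyrosine motifs in the CD3 chains, called ITAMs. The kinase LCK phosphorylates both tyrosines of an ITAM, ZAP-70 binds them and phosphorylates the membrane adaptor LAT and its partner SLP-76, and the complex built there switches on phospholipase C gamma, Ras, protein kinase C and actin remodelling. Phosphatases, ubiquitin ligases and inhibitory adaptors limit each step.

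Totals were 28555677 to 58104663 counts per library. Levels are given as TPM, in which each count is divided by the exon length of the gene and each library is scaled to the same sum. Values of a gene follow the order of replicates 1 to 4, and ± is the SD over these 4 libraries (n = 4). The labels do not say whether the libraries came from separate animals or cultures, so p-values measure only the spread between these samples, part of which may be technical. A level in such bulk RNA cannot tell fewer expressing cells from less RNA per cell. Markers of Th17 cells were present, with 6 of 6 reaching 1 TPM in each library and a summed level of 16200 to 16800 TPM. The summed levels of the other lists were 1.44 to 1.91 TPM for B cells (0 of 6 markers reaching 1 TPM in each library, Ms4a1 at 0), 7.07 to 8.37 for macrophages and monocytes (1 of 6, Lyz2 and Fcgr1 at 0) and 1.31 to 1.69 for NK cells (1 of 5). They were 9.01 to 11.6 for CD8 T cells (1 of 2, led by Cd8b1), 1.25 to 2.57 for gamma-delta T cells (1 of 3), 0.598 to 0.947 for mast cells and basophils (0 of 5, 4 at 0) and 0.34 to 0.546 for platelets (0 of 4, 3 at 0). Replicates 1 and 2 stood apart from replicates 3 and 4 in Xist, the RNA of the inactive X chromosome (132, 131, 0.329 and 0.496 TPM), and, in the opposite direction, in the Y-linked Ddx3y (0.428, 0.347, 58.9 and 57.3 TPM). These values go against a single animal as the source of all 4 libraries, although their donor label is the same. The part of this difference in the results below was not tested. Values given below without genes of chromosomes X, Y and M keep all 4 libraries, so they do not test it.

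Almost the whole relay was expressed. Of the 48 genes, 47 reached 1 TPM in each library, and Syk was the exception. The share of all 21764 protein-coding genes that met the same rule was 47%. The median gene of the list had 71.1 TPM, against 31.3 TPM for the 10223 protein-coding genes that met the rule. A mean of 100 TPM or more was reached by 19 of 48 (39.6%), against 9.33% of all protein-coding genes. Together the 48 genes made up 0.788% ± 0.0065 of all TPM, and the 5 highest (Cd5, Lck, Lat, Malt1 and Lcp2) held 49.6% of that. From Cd5 to Syk the means spanned 6120-fold. Counts summed over the 4 libraries ran from 128 for Syk to 203472 for Ptprc.

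**Figure D1:**
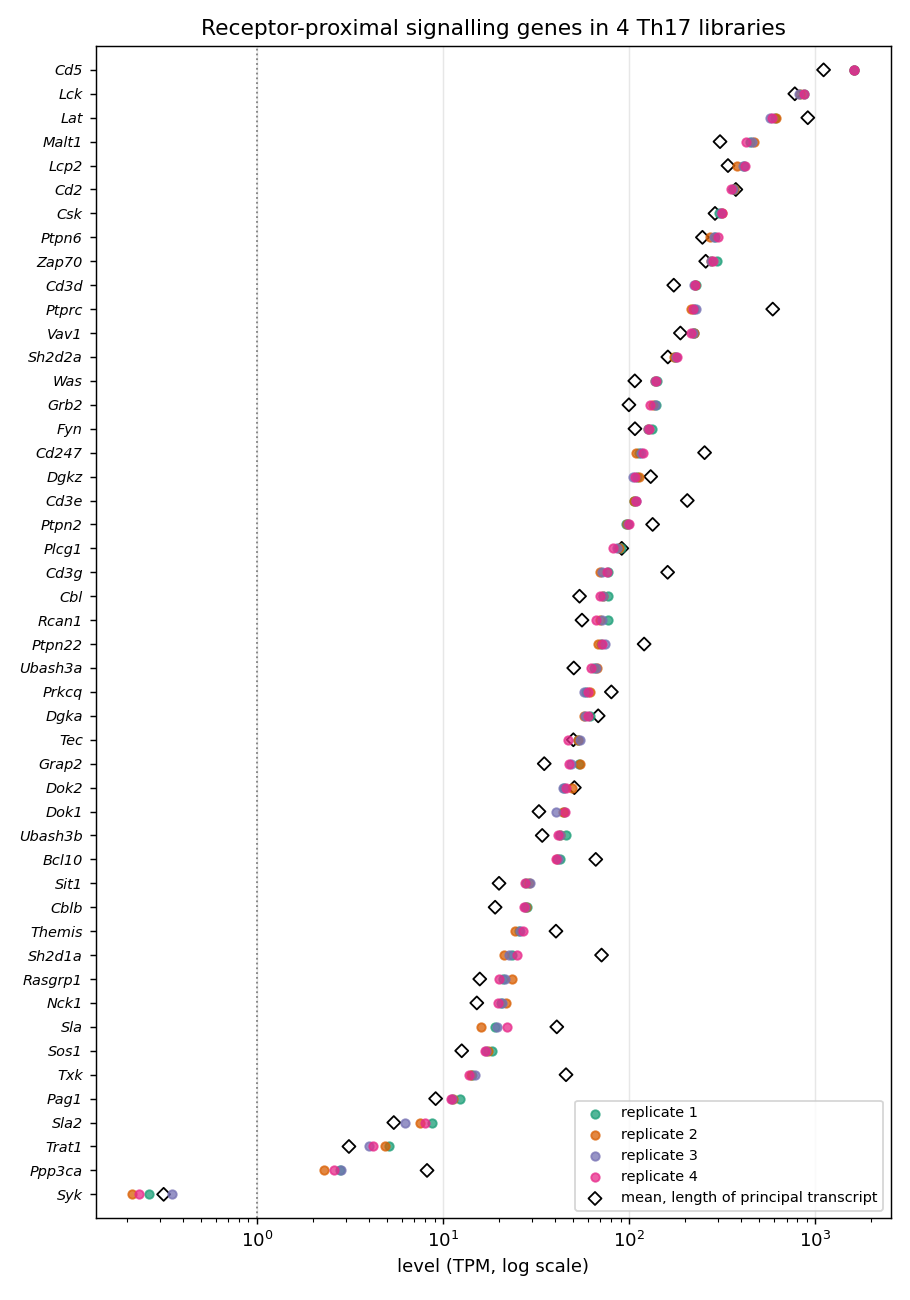
Level of each of the 48 genes, in TPM on a log axis, sorted by the mean. Coloured points are the 4 libraries and open diamonds the mean with the length of 1 main transcript in place of the deposited exon length. Points of a gene lie close together: for 26 of 48 genes the rounded ratio of highest to lowest value is at most 1.09. Cd5 at 1614 TPM and Syk at 0.264 TPM mark the ends.

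Exon length sets part of these levels. The deposited length counts every annotated exon of a gene once, so a gene with long alternative exons gets a low TPM. Levels were therefore also computed with the length of the APPRIS principal transcript, the main protein-coding form in the annotation. This was added after the data were seen, and it is named beside each gene whose level moved by more than 1.5 times. It raised 12 of the 48 genes by that much. A fall by that much could not occur, because only transcript bases inside the deposited exons were counted and no length could grow. A gene of unchanged length, such as Malt1, went to 0.685 times its level through the rescaling alone. The median of the list was then 75.6 TPM. For some genes the deposited exons hold only part of the principal transcript. They hold 684 of 4665 bases for Trat1, 2945 of 7635 for Ubash3a and 3158 of 5475 for Grap2. Reads on the rest were not counted for these genes.

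The receptor's signalling chains come first. CD3 epsilon, delta and gamma pair with the TCR at the surface, and the zeta chain (Cd247) carries several of the motifs. The principal protein of every gene was searched for the ITAM pattern, a tyrosine, any 2 residues and a leucine or isoleucine, then the same again after 6 to 8 residues. There was 1 match each in Cd3e, Cd3d and Cd3g and 3 in Cd247. Of the other 44 genes only Ppp3ca, the catalytic subunit A of the phosphatase calcineurin, had a match, and 621 of 22009 principal proteins (2.82%) did. The 6 coding stretches are shown because they are the sites on which LCK and ZAP-70 act, with the codons of both tyrosines in capitals. They are read 5′ to 3′ on the coding strand from GENCODE M21 transcripts (mm10).
Cd3e ITAM: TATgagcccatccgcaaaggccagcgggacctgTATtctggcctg
Cd3d ITAM: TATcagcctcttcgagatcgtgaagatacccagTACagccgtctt
Cd3g ITAM: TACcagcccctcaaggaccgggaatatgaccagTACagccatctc
Cd247 ITAM 1: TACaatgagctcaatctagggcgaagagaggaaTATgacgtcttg
Cd247 ITAM 2: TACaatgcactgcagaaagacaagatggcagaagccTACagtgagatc
Cd247 ITAM 3: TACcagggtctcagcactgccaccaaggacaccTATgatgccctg
Cd247 ITAM 2 is 48 bases long and the other 5 are 45. All 6 cross an exon junction, so their genome span is longer: chr9:44999549-45000440 (minus strand) for Cd3e, chr9:44986095-44986311 (plus) for Cd3d, chr9:44970735-44971268 (minus) for Cd3g, and chr1:165856451-165857454, chr1:165858473-165859260 and chr1:165859819-165861042 (plus) for Cd247.

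By deposited length, Cd3d had the highest level of the 4 chains. It stood at 228, 225, 223 and 226 TPM, a mean of 226 ± 1.73. Cd247 stood at 112, 108, 116 and 118 TPM and Cd3e at 106, 107, 108 and 108 TPM, and Cd247 was the higher of them in every library although the ranges overlapped. Cd3g was lowest, at 76.9, 69.6, 71.5 and 75.7 TPM. Cd3d was therefore higher than Cd3e in 4 of 4 libraries, by 1.07 ± 0.03 on the log2 scale, and higher than Cd3g by 1.62 ± 0.06. Cd3e lay above Cd3g by 0.55 ± 0.07 and below Cd247 by 0.08 ± 0.04. All such pair differences are log2 ratios of (TPM + 0.1) within a library, with the exact two-sided sign-flip permutation test. With 4 libraries the smallest p it allows is 0.125 (2 of 16 sign patterns), so no pair can pass 0.05. In CPM, counts scaled to the library total without length, 6 pairs had the other sign: Cd3e/Cd3d, Lck/Ptprc, Ptpn2/Ptpn22, Lat/Lcp2, Rasgrp1/Sos1 and Ubash3a/Ubash3b. The smallest p was reached by 27 of the 28 pairs compared here, 0.13 after Benjamini-Hochberg adjustment over the 28, and each of them had the same direction in 4 of 4 libraries.

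The order of the chains turned on the length. With principal transcripts Cd247 was highest at 254 ± 9.9 TPM, before Cd3e at 205 ± 2.46, Cd3d at 173 ± 1.22 and Cd3g at 161 ± 7.47. The Cd3e over Cd3d ratio then changed sign, to a log2 ratio of 0.24, and Cd3d over Cd3g went from 1.62 ± 0.06 to 0.11. The chains thus lay within 1.58 times of each other by principal transcripts and within 3.07 times by deposited length. In raw counts summed over the libraries, Cd3e (21942) and Cd3d (20453) were close, Cd3g had 11957 and Cd247 30410.

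Cd3g, Cd3d and Cd3e are neighbours on chromosome 9 in the deposited annotation (mm10). Cd3g (ENSMUSG00000002033.14, minus strand) spans chr9:44969572-44980431, Cd3d (ENSMUSG00000032094.8, plus strand) chr9:44981786-44987339 and Cd3e (ENSMUSG00000032093.7, minus strand) chr9:44998740-45009627. The starts of Cd3g and Cd3d face away from each other across 1354 bases, and 11400 bases separate Cd3d from Cd3e. The genes on either side had lower levels, 38.2 ± 1.58 TPM for Ube4a, a ubiquitin chain elongation factor, and 7.35 ± 0.456 TPM for Mpzl2, a cell adhesion protein. The 250 bases before the starts of Cd3g and Cd3d are shown since these genes share 1 intergenic stretch (RefSeq, GRCm38.p6, 5′ to 3′ on the strand of each gene). Capitals mark the match to the GC box GGGCGG.
Cd3g, chr9:44980432-44980681, minus strand: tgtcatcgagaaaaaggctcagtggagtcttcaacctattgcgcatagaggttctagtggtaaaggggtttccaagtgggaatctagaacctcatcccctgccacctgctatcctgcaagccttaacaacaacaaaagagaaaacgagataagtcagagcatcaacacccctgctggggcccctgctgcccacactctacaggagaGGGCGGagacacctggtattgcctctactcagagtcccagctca
Cd3d, chr9:44981536-44981785, plus strand: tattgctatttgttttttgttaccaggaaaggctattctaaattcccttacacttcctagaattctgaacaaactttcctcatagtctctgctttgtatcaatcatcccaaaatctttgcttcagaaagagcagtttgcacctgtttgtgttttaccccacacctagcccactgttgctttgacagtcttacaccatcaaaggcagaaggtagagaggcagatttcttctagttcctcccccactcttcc
The Cd3g window had 4 CpG and the Cd3d window had 0. Such windows were in the RefSeq table for 38 of the 48 genes, and 4 motifs were searched in them on both strands. Where a gene had several listed starts, only the first was used. Of the 55 starts listed for these genes, 44 had the last 50 bases of their listed sequence in a GENCODE M21 transcript. Some windows, such as those of Ptprc and Grb2, lie inside the deposited gene. The GC box GGGCGG was in 16 of 38 (42.1%, against 32.9% of 27025 windows of the same length). The ETS motif CCGGAA was in 4 (10.5%, against 12.2%), the RUNX core TGTGGT in 5 (13.2%, against 14.2%) and the TATA box TATAAA in 3 (7.89%, against 13%). These are matches of exact letters, not measured binding. Other forms of the motifs were not searched, so a window without a match may still hold such a site.

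Surface receptors that tune the signal were among the highest of the list. CD5, an inhibitory scavenger-type receptor whose level is known to follow TCR signal strength, was the highest of all 48. Cd5 stood at 1609.8, 1609.8, 1617 and 1619 TPM, rank 57 among protein-coding genes, and its coefficient of variation (CV) of 0.303% was the lowest of the list. Its relative Cd6 had 697 ± 15.3 TPM, so Cd5 held 69.8% of their sum. Cd2, an adhesion receptor that carries its own signal, stood at 367, 367, 360.5 and 351 TPM. Cd5 was above Cd2 by 2.16 ± 0.03 on the log2 scale (1.57 with principal transcripts).

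The kinase that starts the relay was second by deposited length and had rank 3 with principal transcripts. Lck, which phosphorylates the ITAMs, stood at 870.0, 827, 816 and 864 TPM. Fyn, the other Src family kinase of T cells, stood at 132, 126, 126 and 127 TPM. Replicate 1 was highest for both, and Lck was above Fyn in every library by 2.72 ± 0.03, or 6.6-fold. In the family of 8 Src kinases, Lck held 85.6% and Fyn 13% of the summed TPM, and the next was Src with 1.1%.

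Genes that control LCK were high as well, with 1 exception. CSK places the inhibitory phosphate on Src kinases. Csk stood at 302, 314, 312 and 313 TPM, with replicate 1 lowest. PAG1, the membrane anchor that holds CSK, was far lower. Pag1 stood at 12.4, 11.3, 11.2 and 11 TPM, with replicate 1 highest. Csk was above Pag1 by 4.75 ± 0.10 and Lck above Csk by 1.44 ± 0.06. CD45 (Ptprc) removes the inhibitory phosphate. Ptprc stood at 222, 213, 229 and 221 TPM, below Lck by 1.93 ± 0.06 on the log2 scale. It was among the genes that length touched most: with the principal transcript Ptprc had 589.9 ± 16.9 TPM, the fourth of the list, and the difference from Lck shrank to 0.39.

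The 3 cytosolic tyrosine phosphatases were ordered SHP-1, TCPTP, PTPN22. SHP-1 (Ptpn6), which dephosphorylates receptor and kinases, stood at 288, 271, 285 and 299.7 TPM. TCPTP (Ptpn2), which acts on Src and Janus kinases, stood at 95.9, 97.2, 98.5 and 99.6 TPM. Ptpn22, which acts with CSK on LCK and ZAP-70, stood at 70.8, 68.1, 74.1 and 71.1 TPM. None of the 3 ranges overlapped. Ptpn6 was above Ptpn22 by 2.01 ± 0.06 and Ptpn2 above Ptpn22 by 0.46 ± 0.05. With principal transcripts Ptpn22 had 120.2 ± 4.19 TPM, and the ratios to it were 1.04 for Ptpn6 and 0.15 for Ptpn2. Ptpn2 was not the higher gene of its pair: Ptpn1 (PTP1B), its closest relative, had 223 ± 4.32 TPM and 69.5% of their sum. Ptpn11 held 25.9% of its pair with Ptpn6 (48.3% in CPM), and Ptpn12 held 22.2% of the Ptpn22 family.

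ZAP-70 was present nearly without its relative. Zap70 stood at 297, 275, 275 and 281 TPM, with replicate 1 highest. Syk (ENSMUSG00000021457.14), which takes the same place in B cells and some early T cells, stood at 0.263, 0.212, 0.348 and 0.231 TPM, from 21, 22, 57 and 28 counts. No library reached 1 TPM, and replicate 3 was highest. Zap70 held 99.9% of the pair, and the log2 ratio was 9.61 ± 0.24. The ITAM genes of B cells were also under 1 TPM: Cd79a had 0.112 ± 0.0818 and Cd79b 0.62 ± 0.21 TPM.

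**Figure D2:**
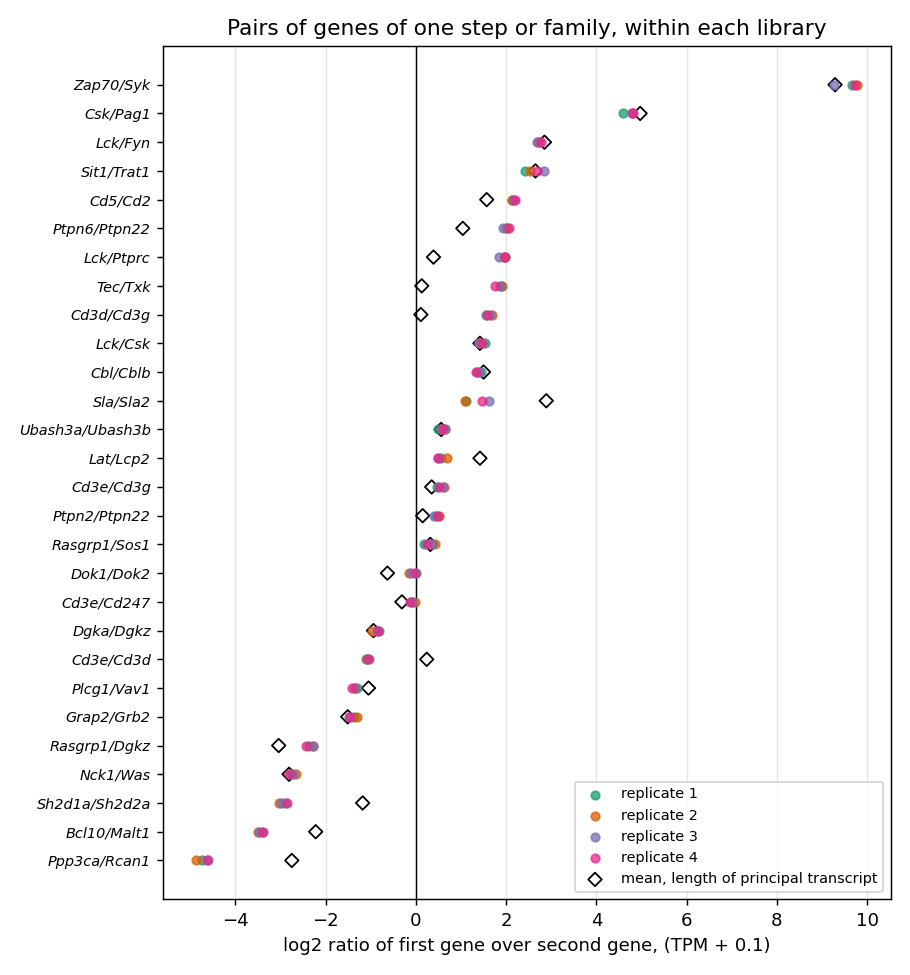
Log2 ratio of the first over the second gene of 28 pairs, on the scale of (TPM + 0.1). Coloured points are the 4 libraries and open diamonds the mean with principal transcript lengths. The points of a pair lie on 1 side of 0 in every pair but Dok1/Dok2, and the diamond crosses 0 only for Cd3e/Cd3d.

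ZAP-70 acts on LAT and SLP-76, and by deposited length both were in the top 5. With principal transcripts Lat had rank 2 and Lcp2 rank 6. Lat, the membrane scaffold, stood at 604, 613, 569 and 586 TPM, with replicate 2 highest. Lcp2, which encodes SLP-76, stood at 412, 380.4, 406 and 419 TPM, with replicate 2 lowest. Lat was above Lcp2 in every library by 0.55 ± 0.10 on the log2 scale, and by 1.42 with principal transcripts, where Lat had 910.1 ± 29.8 TPM. Their relatives of B cells and myeloid cells were low: Lat2 had 1.43 ± 0.396 TPM and Blnk 0.00955 ± 0.0191 TPM, and Clnk was at 0 in all libraries. Of the enzymes recruited there, Vav1, a guanine nucleotide exchange factor, stood at 224, 223, 220.1 and 216 TPM. Plcg1, which cleaves the lipid PIP2 to start calcium and diacylglycerol signals, stood at 90.8, 87.7, 86 and 81.4 TPM. Plcg1 lay below Vav1 by 1.35 ± 0.04. Both were the main form of their family, with 95.5% for Vav1 and 86.9% for Plcg1, and Plcg2 held 13.1%.

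Adaptors of the GRB2 family link LAT to these enzymes. Grb2, which brings the Ras activator SOS, stood at 139, 134, 137 and 129.8 TPM. Grap2 (GADS), which brings SLP-76 to LAT, stood at 53.5, 54.4, 48.8 and 47.4 TPM, with replicate 2 highest and replicate 4 lowest. Grap2 was below Grb2 by 1.41 ± 0.08. The highest of the family was Grap, which is not on the list, with 207 ± 4.69 TPM and 52.7% of the sum (40.1% in CPM, where Grb2 led with 42.5%).

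Tec family kinases activate phospholipase C gamma. Tec stood at 53.2, 53, 54.4 and 47.1 TPM and Txk at 14.4, 14.1, 14.9 and 13.8 TPM. Replicate 4 was the lowest for both. Tec was above Txk by 1.85 ± 0.06, but this rested on length: with principal transcripts Txk had 45.7 ± 1.53 TPM against 50.1 ± 3.17 for Tec, and the log2 ratio was 0.13. The genes lie 2938 bases apart on chromosome 5, both on the minus strand.

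In the Ras and protein kinase C branches, levels ranged from 17.4 to 449 TPM. RASGRP1 is the diacylglycerol-driven Ras activator. Rasgrp1 stood at 21, 23.4, 21.6 and 19.8 TPM and Sos1, the adaptor-driven one, at 18.4, 17.5, 16.9 and 16.7 TPM. Rasgrp1 was above Sos1 by 0.30 ± 0.10, and held 92.6% of the 4 RasGRP genes. Sos2 had 18.9 ± 1.17 TPM, close to Sos1 (52% against 48%). Prkcq, the protein kinase C theta of the immune synapse, stood at 58.6, 61.2, 57.1 and 59.9 TPM. Among 6 isoforms that respond to diacylglycerol it held 21.8%, below Prkch (protein kinase C eta) with 131 ± 2.23 TPM and 48.2%.

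PKC theta signals to NF-kappaB through a complex that holds BCL10 and MALT1. By deposited length Malt1, the protease of that complex, was the fourth of the list at 447, 468, 458 and 421 TPM. With principal transcripts it had rank 7. Bcl10, its bridging adaptor, stood at 42.3, 41, 41.3 and 40.2 TPM. Bcl10 was below Malt1 in every library by 3.44 ± 0.06, a 10.9-fold difference. With principal transcripts Bcl10 had 66.1 ± 1.33 TPM and Malt1 307 ± 13.8, a log2 ratio of -2.22.

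**Figure D3:**
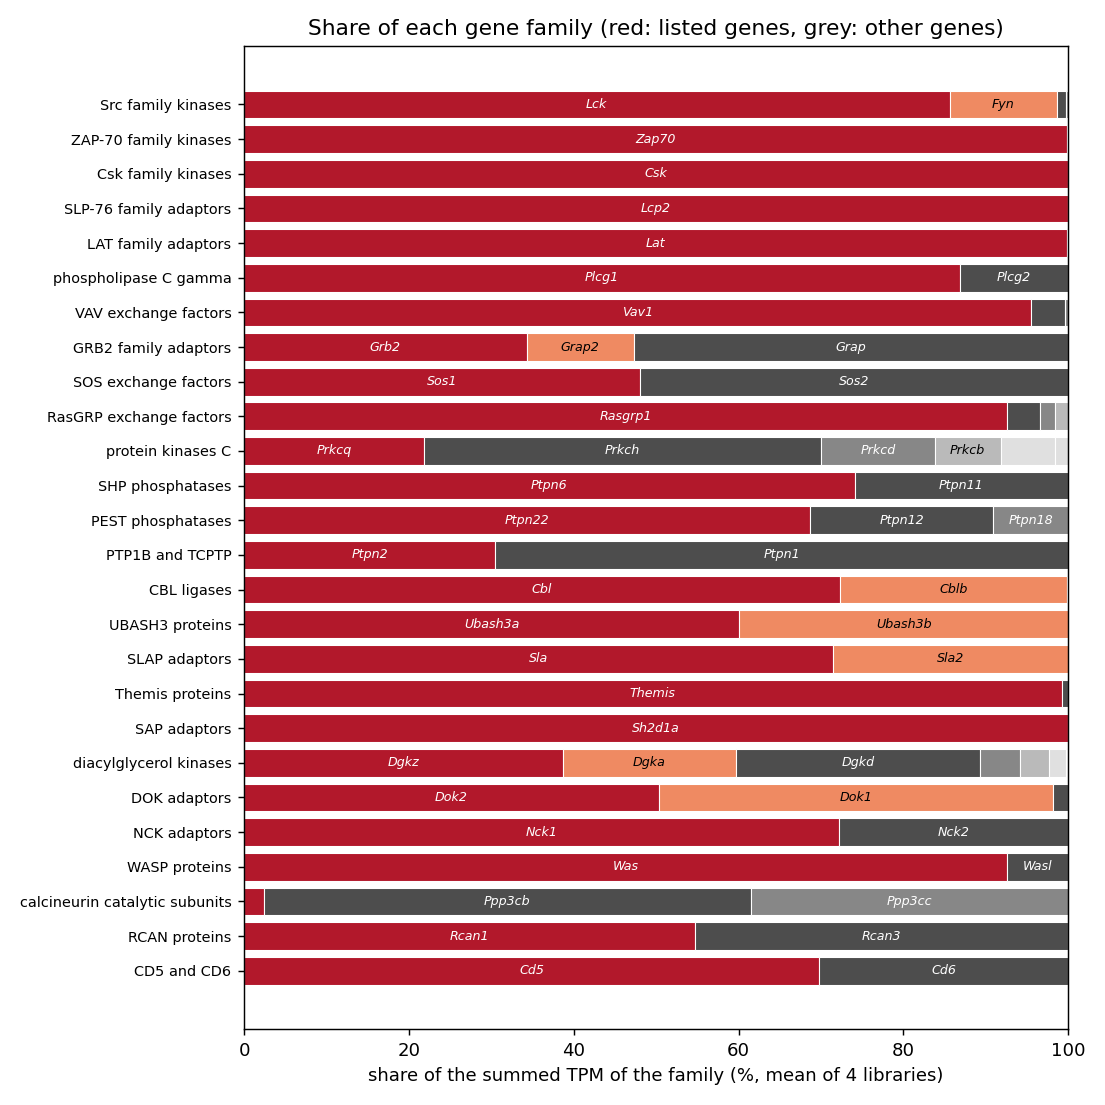
Share of each gene in the summed TPM of its family, in % as the mean of 4 libraries. Red bars are genes of the list of 48 and grey bars other genes. Single genes fill the bars of ZAP-70, CSK, SLP-76 and LAT, while Ppp3ca holds 2.37% of the calcineurin bar.

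Across 27 families a gene of the list was the highest in 22 and another gene in 5: Grap, Sos2, Prkch, Ptpn1 and Ppp3cb. In the ZAP-70, UBASH3 and SLAP families every gene is on the list, so a listed gene had to lead there. Of the 49 family genes outside the list, 22 were under 1 TPM in at least 1 library. Shares under CPM and principal lengths gave another leading gene in 4 families. Those were the ITAM chains (Cd247 under both), GRB2 adaptors (Grb2 by CPM), UBASH3 proteins (Ubash3b by CPM) and RCAN proteins (Rcan3 by CPM).

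The small SH2 adaptors and THEMIS ranged from 7.61 to 178 TPM. SH2D2A (TSAd), an adaptor that binds LCK, was the highest: Sh2d2a stood at 177, 175, 178 and 181 TPM. SAP (Sh2d1a), the adaptor of SLAM receptors, stood at 23.4, 21.4, 22.5 and 24.9 TPM, with replicate 2 lowest and replicate 4 highest. Sh2d1a was below Sh2d2a by 2.94 ± 0.07, and by 1.18 with principal transcripts, where Sh2d1a had 71 ± 4.6 TPM. THEMIS, an adaptor that binds SHP-1 and is best known from thymocytes, was expressed too. Themis stood at 25.7, 24.2, 25.7 and 26.9 TPM (40.4 ± 1.74 with the principal transcript).

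SLAP (Sla) and SLAP2 (Sla2) bring the ubiquitin ligase CBL to the CD3 chains and ZAP-70. Sla (ENSMUSG00000022372.14) stood at 19, 15.9, 19.5 and 22.1 TPM, with replicate 2 lowest, replicate 4 highest and replicates 1 and 3 between. Sla2 stood at 8.73, 7.49, 6.24 and 7.98 TPM, with another order: replicate 3 was lowest and replicate 1 highest. Sla was above Sla2 by 1.32 ± 0.27, and with principal transcripts, where Sla had 40.8 ± 5.4 TPM, by 2.89.

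The E3 ligases and their partners lay between 27.8 and 72.7 TPM. Cbl, which ubiquitinates receptor chains and kinases, stood at 76.9, 71.9, 72.6 and 69.2 TPM, with replicate 1 highest. Cblb, whose loss is known to free T cells from the need for costimulation, stood at 28.4, 27.9, 27.6 and 27.2 TPM. Cbl was above Cblb by 1.38 ± 0.04, and Cblc had 0.0653 ± 0.0425 TPM. UBASH3A and UBASH3B (STS-2 and STS-1) bind CBL and blunt ZAP-70 signalling. Ubash3a stood at 64.5, 66.9, 66.1 and 62.6 TPM and Ubash3b at 46, 42.6, 42.4 and 41.6 TPM. Ubash3a was above Ubash3b in every library by 0.59 ± 0.07.

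Of the transmembrane adaptors, Sit1, which binds CSK and an SHP phosphatase, stood at 27.9, 28.8, 29.4 and 27.5 TPM. Trat1 (TRIM), which associates with the zeta chain, stood at 5.14, 4.88, 4.01 and 4.18 TPM, with replicate 1 highest and replicate 3 lowest. It rested on 152 counts in all, over deposited exons that hold 684 of the 4665 bases of its principal transcript. Sit1 was above Trat1 by 2.62 ± 0.18. The DOK adaptors bring the Ras inhibitor RasGAP. Dok1 stood at 44.9, 44.2, 40.5 and 45.1 TPM and Dok2 at 44.6, 49, 43.9 and 45.7 TPM. Their ranges overlapped and Dok2 was higher in 3 of 4 libraries. The log2 ratio of -0.07 ± 0.08 was within the spread (exact permutation p = 0.25), and with principal transcripts Dok2 was higher by 0.63.

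Diacylglycerol kinases end the Ras and PKC signals by using up diacylglycerol. Dgkz stood at 109, 113, 105 and 108 TPM and Dgka at 61.7, 57.4, 57.8 and 59.8 TPM. Dgka was below Dgkz by 0.88 ± 0.07, and Rasgrp1, which the same lipid activates, was below Dgkz by 2.34 ± 0.08 (3.04 with principal transcripts). Dgkd, which is not on the list, had 83.4 ± 3.88 TPM and 29.6% of the 9 kinases, between Dgkz with 38.7% and Dgka with 21%.

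On the actin side, Was, which encodes the WASP protein that starts actin branching, stood at 141, 137, 138 and 139 TPM. Nck1, an adaptor that brings WASP to SLP-76, stood at 20.5, 21.6, 20.8 and 19.8 TPM. Nck1 was below Was by 2.74 ± 0.07. Nck2, which is not on the list, held 27.8% of its pair with Nck1. Was and Sh2d1a are the 2 genes of the list on chromosome X. Over libraries that differ in Xist, the highest value was 1.03 times the lowest for Was and 1.16 times for Sh2d1a.

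Calcineurin, the calcium-driven phosphatase that activates NFAT, was present mainly through subunits that are not on the list. Rcan1, a feedback inhibitor of calcineurin that NFAT is known to induce, stood at 77.1, 69.3, 71.2 and 66.6 TPM, with replicate 1 highest. Its relative Rcan3 held 45.3% of the RCAN family (62.8% in CPM). Ppp3ca stood at 2.79, 2.29, 2.84 and 2.6 TPM. It was below Rcan1 by 4.71 ± 0.12, and by 2.75 with principal transcripts, where Ppp3ca had 8.19 ± 0.779 TPM. The other catalytic subunits carried nearly all of this family: Ppp3cb had 65.6 ± 1.43 TPM and 59.1% of the sum, and Ppp3cc 42.8 ± 0.536 TPM and 38.6%. Ppp3ca held 2.37% ± 0.23, or 7.59% with principal transcripts.

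**Figure D4:**
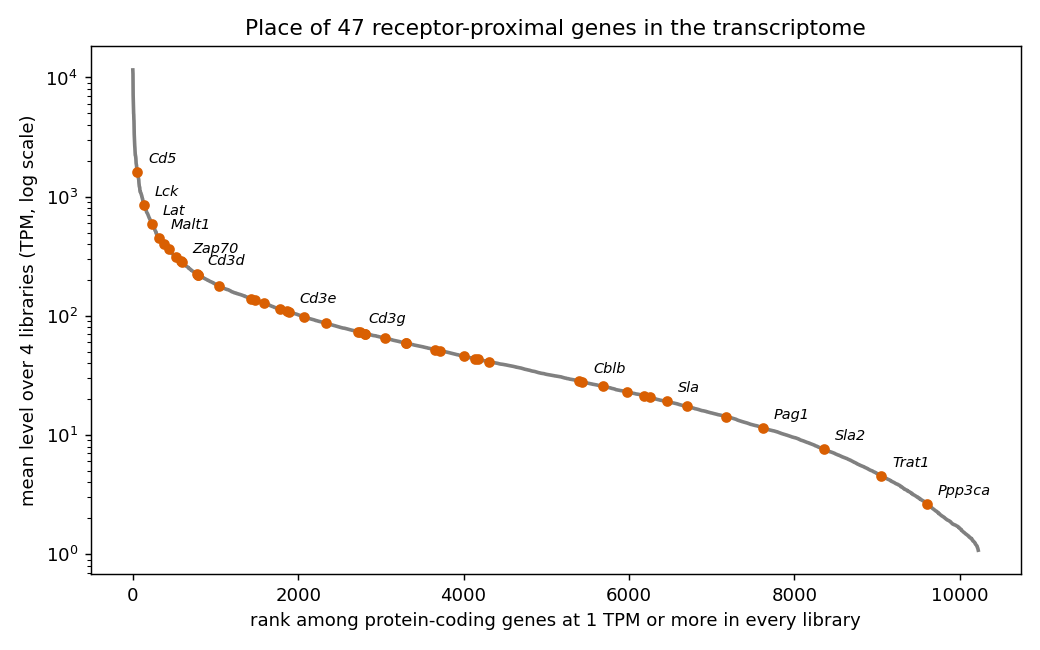
Mean level of 47 genes of the list (orange, some named) on the curve of all 10223 protein-coding genes that reached 1 TPM in each library, sorted from high to low, with TPM on a log axis. Counted over all 21764 protein-coding genes, the ranks run from 57 (Cd5) to 9610 (Ppp3ca). The curve holds only those that met the rule, so places on it can differ from these ranks.

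Sorted by mean, the 48 genes gave 47 neighbouring pairs. In 25 the ranges over the libraries did not overlap and in 22 they did. By deposited length each of the first 7 genes (Cd5, Lck, Lat, Malt1, Lcp2, Cd2 and Csk) lay above the next in 4 of 4 libraries. Ptpn6 and Zap70 did not separate, nor did Cd3d, Ptprc and Vav1, nor Cd3g, Cbl, Rcan1 and Ptpn22. In the middle, Tec, Grap2, Dok2, Dok1, Ubash3b and Bcl10 formed a run in which each overlapped the next. The lowest genes, from Sos1 to Syk, were again separate.

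Most genes had like levels in the 4 libraries. The median CV of the 48 was 3.62%, beside 3.54% over the 7905 protein-coding genes with a mean of 10 TPM or more. A CV under 5% was seen for 37 genes, and 4 had 10% or more: Syk (22.8%), Sla2 (13.8%), Sla (13.2%) and Trat1 (11.9%). On the scale of log2 CPM, the median SD was 0.05, beside 0.07 over all 12434 genes tested, which were not matched to the 48 for level. For replicates 1 to 4 the median deviation of the 48 genes from their own means was 0.00717, -0.0104, 0.0058 and 0.000239 log2 units.

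**Figure D5:**
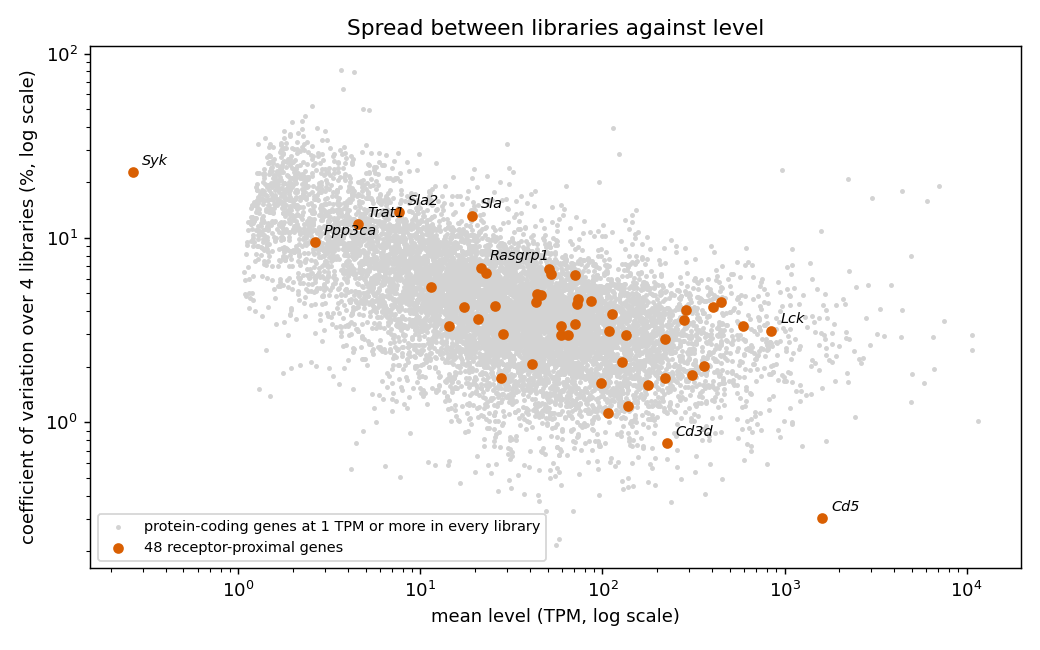
Coefficient of variation over the 4 libraries, in %, against mean TPM, both on log axes. Orange points are the 48 genes and grey points the protein-coding genes that reached 1 TPM in each library. The orange points lie within the grey cloud at their level, apart from Syk, which is below the level of the grey genes, and Cd5, whose CV of 0.303% lies under those of grey genes at a like level.

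Whether any gene varied between libraries beyond the usual spread of genes at its level was tested with the negative binomial deviance at edgeR's trended dispersion, with Benjamini-Hochberg adjustment over 12434 genes. None of the 48 passed an adjusted p of 0.05, against 0.523% of all genes (65). An unadjusted p under 0.05 was seen for 1 gene, Sla, whose highest CPM was 1.396 times its lowest (adjusted p = 0.1076, edgeR). With DESeq2 size factors the count was also 0. Against counting noise alone (Poisson deviance), 27 of the 48 differed between libraries, beside 36.6% of all genes tested. That test picks up smaller differences at higher counts, and the genes were not matched for level. The call for Sla depended on which libraries and genes were included: its adjusted p was 0.0008823 without replicate 3, 0.05324 without replicate 1, 0.6579 without replicate 4, 1 without replicate 2 and 0.0003709 without genes of chromosomes X, Y and M (edgeR in each case). With no filter on low counts the adjusted p of edgeR's deviance was 0.04165. The main fit included genes of chromosomes X, Y and M when it set the usual spread. Without them, the unadjusted p of edgeR's deviance was lower for each of the 46 listed genes tested. Examples are Lcp2 (0.1158 against 0.6899) and Cbl (0.2642 against 0.7096) in the same edgeR test. The count of 0 among the 48 thus rests on the spread set by the main fit.

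Little of these genes is shared with others in sequence. Lck, Lat and Cd247 share exon bases with another gene on the same strand (0.854%, 2.71% and 3.87% of their length), and the largest share of 100-base windows found elsewhere among transcripts was 2.21%, in Grb2.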

How the data were processed

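The authors deposited, per the file headers, whole-number counts of read pairs over the exons of each gene. The counter was featureCounts 1.4.6-p4 with strand option 2, both ends mapped, on GENCODE M13 gene models. The labels name the mm10 build, and which aligner was used was not given in the sources used here. The assay label reads total RNA, while the name of the linked library protocol has poly(A)+ in it. The deposited tables also give exon length in bases, from which TPM was computed here over all 50600 genes. Symbols came from GENCODE M21 for 50376 genes. The 48 genes, the pairs, families and marker lists were chosen with earlier results of these data known. All 48 genes are named by level, with values in every library for those in pairs, under 1 TPM, called variable or with a library that stands apart. Other family genes are named when they lead or hold 20% of a family, and a few low relatives were named after their values were seen. Variation used edgeR 4.0.16 in R 4.3.3 (TMM scaling, default low-count filter), with DESeq2 1.42.0 size factors as an alternative. It was also tested on simulated data with genes changed in 1 library. There it recovered 9.5% of genes changed 1.2-fold, 74% at 1.5-fold and 82% at 2-fold, so small differences would mostly be missed among such genes. The changed genes were drawn at random from all genes tested and not matched to the 48 for level. The rates for the 48 may therefore differ. Other alternatives were no filter, a common dispersion, Poisson deviance, a 2-fold minimum, other TPM thresholds (5 and 10), pseudocounts (1 and 0.01), CPM, a nuclear protein-coding denominator and each replicate left out. Principal transcript lengths, taken as the bases of the transcript inside the deposited exons, and the fit without chromosomes X, Y and M were added after the data were seen. Shares of 2 further gene families are not reported here.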

Additional observations from a re-analysis of the deposited data

Results flagged for a closer look

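In 2 of 48 genes 1 library stood apart from the other 3 by Dixon's criterion (the gap to the nearest library over the whole range), which by chance happens in about 1 in 20 groups. Csk was lowest in replicate 1 at 301.9 TPM, with the next library at 311.8 TPM (gap over range 0.832). Pag1, which anchors the CSK protein, was highest in replicate 1 at 12.39 TPM, with the next at 11.26 TPM (0.833).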

How the results depend on the processing

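The median level of the 48 genes was 71.1 TPM, 75.3 with nuclear protein-coding genes as the denominator, which raised levels by 1.06 times, and 75.6 with principal transcript lengths. The number of the 48 that varied between libraries was 0 with edgeR's trended dispersion and ranged from 0 to 1 on leaving out each replicate (Sla, without replicate 3). It was 1 with no filter on low counts and 1 without chromosomes X, Y and M (Sla in both), and 27 by Poisson deviance, which counts only sampling noise. Of 28 pair ratios, the sign changed for Cd3e/Cd3d (to 0.24 with principal lengths and 0.10 in CPM) and, in CPM only, for Lck/Ptprc (-0.71), Ptpn2/Ptpn22 (-0.65), Lat/Lcp2 (-0.14), Rasgrp1/Sos1 (-0.37) and Ubash3a/Ubash3b (-0.55), since CPM does not divide by length. Other pseudocounts changed no sign among the 28. Leaving out 1 replicate could change the sign only for Dok1/Dok2, the pair without the same sign in all libraries, and did not. No pairing of libraries between groups was possible because the libraries form 1 group. The lowest counts were those of Syk and Trat1, with 128 and 152 in all. For Trat1 the deposited exons hold 684 of the 4665 bases of its principal transcript. The part of depth in its low count was not tested.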

Other observations

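The partners of these genes, a list of 45 others of the pathway, were expressed in much the same range. In each library 44 of 45 reached 1 TPM, and Gab3, a docking adaptor, was the exception. Their median was 72.3 TPM, and 16 had a mean of 100 TPM or more. The highest was Coro1a, an actin regulator of T cell survival and migration, at 949 ± 48 TPM, followed by Trac, the TCR alpha constant gene, at 839.6 ± 31.5 TPM. By edgeR's deviance test 0 of the 45 varied between libraries after adjustment (0 also with DESeq2 size factors). At an unadjusted p under 0.05 there were 2, Evl and Lax1. Poisson deviance called 29 of the 45, beside 36.6% of all genes tested, which were not matched for level.

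The coreceptor Cd4 had 346 ± 16.1 TPM and the costimulatory receptor Cd28 166 ± 8.98 TPM. The regulatory subunit of calcineurin, Ppp3r1, had 190.4 ± 4.06 TPM, and among the NFAT factors it acts on Nfatc1 had 98.8 ± 2.45, Nfatc3 68 ± 1 and Nfatc2 58.5 ± 2.76 TPM. These genes were named for their roles after their values were seen.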
